A study of Neurospora crassa with 5 samples.

Results

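Transcripts of 7 allorecognition genes of the filamentous fungus Neurospora crassa were followed in sexual cultures before and shortly after wild-type conidia were added. Whether fertilisation took place was not tested. The genes were doc-1 (NCU07191), doc-2 (NCU07192), cwr-1 (NCU01380), cwr-2 (NCU01382), sec-9 (NCU09243), plp-1 (NCU09244) and rcd-1 (NCU05712). They were taken by locus tag and not by their values, though earlier results of these data were already known. All 7 were found among the 10591 gene rows used. In all 5 libraries the RNA came from cultures of one mutant strain of the mating-type gene mat 1-2-1, FGSC 4564, whose genotype is mat a[m1]s-3B cyh-1. It had grown for 6 days on crossing medium, until protoperithecia, the young female fruiting bodies, were abundant. The crossed group (3 libraries, replicates 1, 2 and 3) was collected 2 h after conidia of the wild type FGSC 2489 had been added. The uncrossed group (2 libraries, replicates 1 and 3) was collected just before crossing. One plate made one replicate, so each library sampled a whole culture. The label protoperithecia was not checked against markers here. A crossed library can contain RNA of these conidia besides that of the recipient, and wild-type recipients were not analysed here. In such mixed tissue, fewer cells of a type and less RNA per cell cannot be told apart.

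Germinated spores and hyphae of Neurospora crassa fuse into one network, and several polymorphic loci decide whether partners of different genotype may do so. The doc genes act at a distance: germlings with different doc alleles grow towards each other less often. The cwr genes act on contact, where incompatible cells stay attached but do not dissolve the wall between them. The remaining genes act once cytoplasm has mixed and can kill the fused cell: sec-9 encodes a SNARE protein of vesicle fusion, plp-1 a patatin-like phospholipase that acts with it, and rcd-1 a relative of the pore-forming gasdermins of animals. Alleles of these loci differ among strains. Which alleles FGSC 4564 and FGSC 2489 carry is not stated in the sources used here, so each value is the level counted on the authors' annotation. Reads of an allele that differs from the reference may align less well, and a crossed library can hold alleles of both strains. The effect of this on the counts was not tested.

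Library totals were 31063642 to 39592703 counts in the crossed group and 25817200 to 39639683 counts in the uncrossed group. Ribosomal RNA genes took 19.3 to 34.0% of the crossed and 14.3 to 21.3% of the uncrossed libraries. Crossed replicates 2 and 3 were the most alike, with a chi-square per degree of freedom of 7.81 between their counts, against at least 83.6 in every other pair of libraries. They were counted as separate replicates, as labelled, and the chi-square cannot show whether they came from separate plates, since it is set against counting noise alone. Levels below are CPM, counts scaled by TMM to one library size, and fold changes are crossed over uncrossed. Across the 8638 genes tested with edgeR, 4 (0.0463%) passed an adjusted p of 0.05, with 0.0116% higher and 0.0347% lower in crossed cultures. Of the 7 allorecognition genes, all were tested and 0 passed. One of them had an unadjusted p under 0.05, which 21.3% of all tested genes had, 10.3% higher and 11.0% lower in crossed cultures. DESeq2 called 0 of the 7 too, where it called 11.3% of the genes to which it gave an adjusted p. The lowest count of any of the 7 genes was 566 (cwr-2 in crossed replicate 3), whose exact 95% Poisson interval was 520 to 615 counts, or 19.0 to 22.4 CPM. Such intervals cover only the counting error, because reads that carry no molecular identifier are not independent molecules.

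The chemotropic checkpoint genes doc-1 and doc-2 were high in the replicates numbered 1 of either group and low in crossed replicates 2 and 3. The doc-1 gene had 135, 72.0 and 74.2 CPM in crossed replicates 1, 2 and 3, against 173 and 94.3 CPM in uncrossed replicates 1 and 3. Crossed replicate 1 thus lay above uncrossed replicate 3, and the groups overlapped. The group means of doc-1 were 93.9 ± 36.0 CPM (SD, n = 3) in crossed and 134 ± 55.7 CPM (SD, n = 2) in uncrossed cultures. Its log2 fold change, -0.51 with an SE of 0.38, did not pass the threshold (adjusted p = 0.450, edgeR). Without uncrossed replicate 1 that fold change was -0.0067, and without crossed replicate 1 it was -0.87.

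The partner gene doc-2 had 245, 121 and 121 CPM in crossed replicates 1, 2 and 3, against 335 and 175 CPM in uncrossed replicates 1 and 3. The libraries stood in the same order as for doc-1, and the groups again overlapped. Means were 162 ± 71.7 CPM (SD, n = 3) in crossed and 255 ± 113 CPM (SD, n = 2) in uncrossed cultures, a log2 fold change of -0.65 with an SE of 0.42 (adjusted p = 0.399, edgeR). Leaving out uncrossed replicate 1 brought it to -0.11, and leaving out crossed replicate 1 to -1.08.

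**Figure D1:**
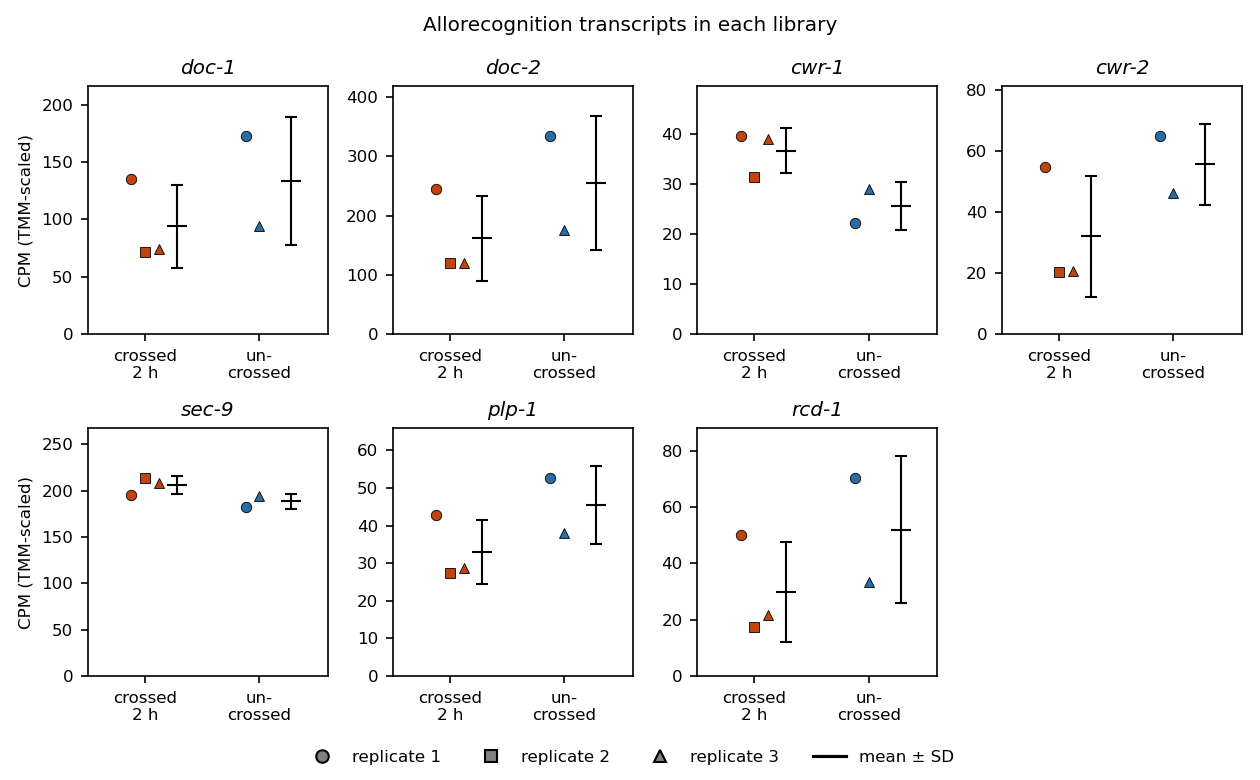
TMM-scaled CPM of each gene in the 3 crossed libraries (left of each panel) and the 2 uncrossed libraries (right), with marker shape for the replicate number and the mean ± SD beside the points; each axis starts at 0. The groups overlap in doc-1, doc-2, cwr-2, plp-1 and rcd-1, while in cwr-1 and, under this scaling, in sec-9 each crossed library lies above the uncrossed ones.

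The genes of the cell wall checkpoint did not share a direction. The gene cwr-1, which encodes a chitin-active polysaccharide monooxygenase, had 39.7, 31.4 and 39.0 CPM in crossed replicates 1, 2 and 3, against 22.1 and 28.9 CPM in uncrossed replicates 1 and 3. Every crossed library lay above both uncrossed libraries. The means were 36.7 ± 4.57 CPM (SD, n = 3) in crossed and 25.5 ± 4.83 CPM (SD, n = 2) in uncrossed cultures. The log2 fold change of 0.52 (SE 0.18), or 1.44-fold, had an unadjusted p of 0.0271 and an adjusted p of 0.193 in edgeR's test, which missed the threshold. By DESeq2 the adjusted p was 0.0973, and over all alternative settings it ran from there to 0.598. The direction was the same in all 13 alternatives, and leaving out single libraries gave log2 fold changes of 0.34 to 0.73.

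The linked gene cwr-2, which encodes a membrane protein with several predicted transmembrane stretches, had 54.8, 20.5 and 20.7 CPM in crossed replicates 1, 2 and 3, against 65.1 and 46.2 CPM in uncrossed replicates 1 and 3. Crossed replicates 2 and 3 were the lowest of the 5 libraries, and crossed replicate 1 lay between the uncrossed libraries. Means were 32.0 ± 19.8 CPM (SD, n = 3) in crossed and 55.7 ± 13.3 CPM (SD, n = 2) in uncrossed cultures, a log2 fold change of -0.80 with an SE of 0.48 (adjusted p = 0.370, edgeR). Without crossed replicate 1 the log2 fold change of cwr-2 was -1.43, with an adjusted p of 0.0332 by edgeR. That fit called 762 of 8616 genes (8.84%). Its crossed group was replicates 2 and 3, the most alike pair of libraries, whose separate plates could not be shown. Its p-values rest in part on the spread of that pair. Without uncrossed replicate 1 the log2 fold change of cwr-2 was -0.53. None of the other 6 allorecognition genes was called in any alternative.

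The germling death genes sec-9 and plp-1, which neighbour each other, differed in how much they varied. The SNARE gene sec-9 had 196, 214 and 208 CPM in crossed replicates 1, 2 and 3, against 183 and 194 CPM in uncrossed replicates 1 and 3. Its highest library was 1.17 times its lowest, and each crossed library lay just above both uncrossed libraries. The means of 206 ± 9.41 CPM (SD, n = 3) in crossed and 188 ± 7.89 CPM (SD, n = 2) in uncrossed cultures gave a log2 fold change of 0.13 with an SE of 0.10 (adjusted p = 0.477, edgeR). With plain library sizes, which put the median over all tested genes at -0.21 on the log2 scale, the sign for sec-9 turned to -0.089. The shift is larger than the fold change of sec-9 itself, so no direction is given for this gene.

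The phospholipase gene plp-1 had 42.9, 27.4 and 28.8 CPM in crossed replicates 1, 2 and 3, against 52.8 and 38.1 CPM in uncrossed replicates 1 and 3. Crossed replicate 1 again lay between the uncrossed libraries. Means were 33.0 ± 8.59 CPM (SD, n = 3) in crossed and 45.4 ± 10.3 CPM (SD, n = 2) in uncrossed cultures, a log2 fold change of -0.46 with an SE of 0.25 (adjusted p = 0.329, edgeR).

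The gasdermin relative rcd-1 was the most variable of the 7. It had 50.2, 17.6 and 21.5 CPM in crossed replicates 1, 2 and 3, against 70.5 and 33.6 CPM in uncrossed replicates 1 and 3. The highest library held 4.02 times the lowest. Within the crossed group alone the ratio of highest to lowest was 2.86, and within the uncrossed group 2.1. The means were 29.8 ± 17.8 CPM (SD, n = 3) in crossed and 52.0 ± 26.1 CPM (SD, n = 2) in uncrossed cultures, a log2 fold change of -0.80 with an SE of 0.54 (adjusted p = 0.411, edgeR). Leaving out uncrossed replicate 1 gave -0.17 and leaving out crossed replicate 1 gave -1.41.

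Groups did not overlap in 2 of the 7 genes, cwr-1 and sec-9, both higher in crossed libraries under TMM scaling. Among all tested genes 41.9% had no overlap, 21.3% with the crossed libraries higher and 20.6% with them lower. The share of 2 in 7 lies between the 21.3% and the 41.9%, and 7 genes are too few to tell it from them. The other 5 genes, doc-1, doc-2, cwr-2, plp-1 and rcd-1, had the same order of libraries. From high to low it was uncrossed replicate 1, crossed replicate 1, uncrossed replicate 3, crossed replicate 3 and crossed replicate 2. The order of the first 3 with crossed replicates 2 and 3 below them, singled out after the values had been seen, occurred in 523 of the 8638 tested genes (6.05%). It also occurred in 1 of 6 het genes (tol) and in 1 of 10 germling fusion genes (adv-1). None of these 5 genes separated the groups.

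**Figure D2:**
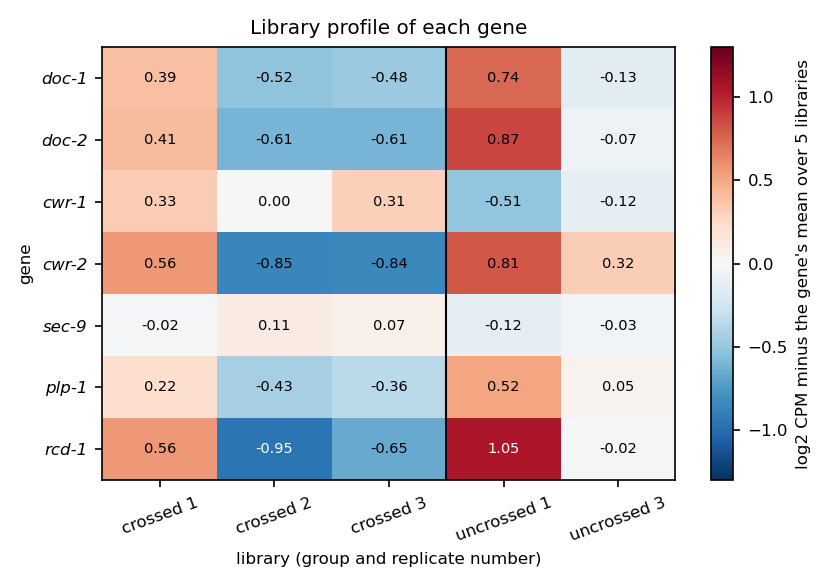
Log2 CPM of each gene (rows) in each library (columns, crossed then uncrossed), minus the mean of that gene over the 5 libraries, with the value printed in each cell. Red cells of uncrossed 1 and crossed 1 and blue cells of crossed 2 and 3 recur in doc-1, doc-2, cwr-2, plp-1 and rcd-1, whereas cwr-1 and sec-9 do not share that profile.

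The size of this variation was measured by the SD of log2 CPM over the 5 libraries. It was set against the 6797 tested genes with a mean of at least 10 CPM. The SD of rcd-1 was 0.83, larger than in 96.5% of those genes, and that of cwr-2 was 0.79, larger than in 96.0%. For doc-2 and doc-1 the SD was 0.64 and 0.55, above 93.0% and 90.3% of genes. The SD of plp-1 was 0.40 (82.7%) and that of cwr-1 0.35 (78.9%). The SNARE gene sec-9 was at the other end, with an SD of 0.090 that only 13.3% of genes undercut.

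Likeness of profile was measured as the root mean square difference of centred log2 CPM over the 5 libraries. The doc genes were close to each other, with a difference of 0.093, and doc-2 was the fourth nearest of 8637 genes to doc-1. The median difference from doc-1 to all tested genes was 0.53. The gene nearest to doc-1, and also to doc-2, was ham-6 (NCU02767), named for hyphal anastomosis, at 0.049 and 0.058. This gene had 80.6, 42.0 and 42.3 CPM in crossed replicates 1, 2 and 3, against 106 and 59.4 CPM in uncrossed replicates 1 and 3. Nearest to rcd-1 was NCU12068 at 0.098, and among genes with a symbol gh10-3 at 0.12. Within the 7 genes rcd-1 lay closest to doc-2 (0.19) and to cwr-2 (0.21), which ranked 13th and 19th of 8637 genes.

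The other profiles had neighbours of unlike kinds. For cwr-2 the nearest gene was NCU06983 at 0.067, and the nearest with a symbol was asd-1, a gene of ascus development, at 0.088. The gene alc-1, for the purine-degrading enzyme allantoicase, was nearest to plp-1 at 0.045. For cwr-1 it was NCU12057 at 0.063, and with a symbol qa-1S, the repressor of the quinic acid cluster, at 0.11. For sec-9 it was NCU09860 at 0.012, and with a symbol the recombinase gene mei-3 at 0.019. With 5 libraries such nearness is a description of these libraries.

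Linked genes were compared within each library by the ratio of their counts, which does not depend on library scaling. Gene length also enters such a ratio, so only its difference between libraries can be read. The count of cwr-1 was 0.724, 1.53 and 1.88 times that of cwr-2 in crossed replicates 1, 2 and 3, against 0.340 and 0.626 times in uncrossed replicates 1 and 3. Every crossed library lay above both uncrossed libraries. The log2 ratio was 0.35 ± 0.73 (SD, n = 3) in crossed and -1.12 ± 0.62 (SD, n = 2) in uncrossed cultures, a difference of 1.47, or 2.77-fold. An exact permutation test, two-sided over all 10 splits, gave p = 0.2, where 0.1 is the smallest p that 3 against 2 libraries allow. Leaving out single libraries gave differences of 1.03 to 1.91.

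In the doc pair the ratio of doc-1 to doc-2 counts stayed in a narrow range. It was 0.553, 0.597 and 0.616 in crossed replicates 1, 2 and 3, against 0.517 and 0.539 in uncrossed replicates 1 and 3. All crossed libraries were higher, by 0.16 on the log2 scale (exact permutation p = 0.2, n = 3 and 2). The count of sec-9 was 4.56, 7.82 and 7.23 times that of plp-1 in crossed replicates 1, 2 and 3, against 3.46 and 5.08 times in uncrossed replicates 1 and 3. Here crossed replicate 1 lay between the uncrossed libraries, and the difference of 0.60 on the log2 scale had an exact permutation p of 0.3 (n = 3 and 2).

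**Figure D3:**
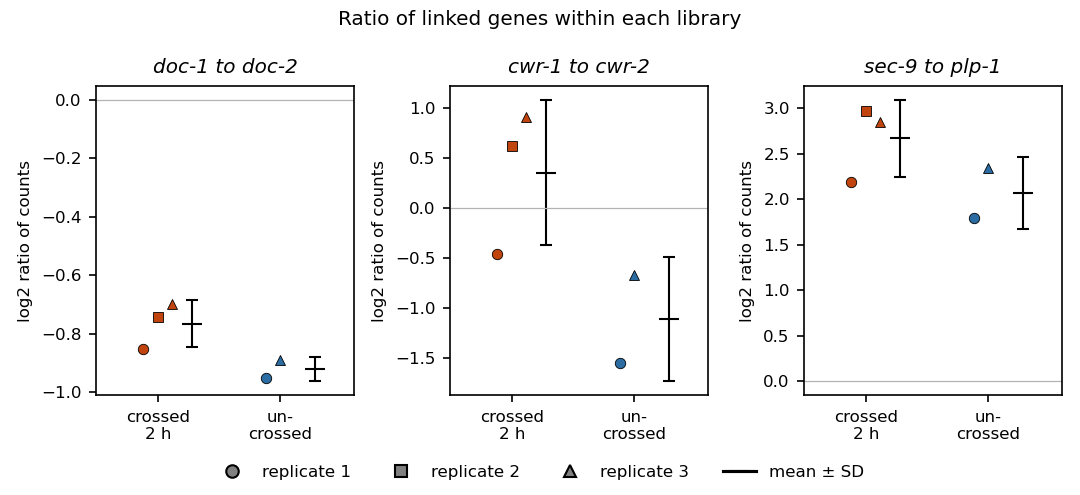
Log2 ratio of the counts of linked genes within each library, crossed left and uncrossed right, with marker shape for the replicate number and the mean ± SD beside the points. The doc pair spans a narrow range, the cwr pair is higher in each crossed library than in either uncrossed one, and in the sec-9 and plp-1 pair the groups overlap.

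Levels of conidial markers also varied between the libraries. The list held the hydrophobin gene eas with con-6, con-8, con-10 and con-13, and none was at 0 in any library. Their summed level was 35718, 64029 and 59585 CPM in crossed replicates 1, 2 and 3, against 15162 and 30531 CPM in uncrossed replicates 1 and 3. Most of the sum was eas, with 27897, 47303 and 44024 CPM in crossed replicates 1, 2 and 3, against 9197 and 22810 CPM in uncrossed replicates 1 and 3. The sum was highest in the libraries where doc-1, doc-2, cwr-2, plp-1 and rcd-1 were lowest. It was lowest in uncrossed replicate 1, where those genes were highest. In crossed replicate 1 the sum and each of those genes lay above their levels in uncrossed replicate 3. The orders were thus not opposite there. Ribosomal RNA genes took 14.3% of uncrossed replicate 1, 19.3% of crossed replicate 1 and 21.3% of uncrossed replicate 3. They took 33.6% of crossed replicate 3 and 34.0% of crossed replicate 2, an order opposite to that of those 5 genes. Neither relation was tested. The marker con-10 differed from the sum, with 485, 1194 and 1048 CPM in crossed replicates 1, 2 and 3, against 521 and 497 CPM in uncrossed replicates 1 and 3. It was thus lowest in crossed replicate 1. For con-8, crossed replicate 1 (2304 CPM) lay below uncrossed replicate 3 (2399 CPM), also unlike the sum. All 5 markers had fold changes above 0 (median log2 1.18), as had 4328 of the 8638 tested genes. Of the 5 markers, 0 passed by edgeR and 3 by DESeq2. At an unadjusted p under 0.05 by edgeR there were 3. Over all tested genes 10.3% were higher at that p, and DESeq2 called 11.3% in either direction. The part of conidial RNA in the values of the 7 genes was not tested.

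Genes at or acting on the het loci, which control heterokaryon incompatibility, were set beside them. Of the 6 listed (het-6, un-24, het-c, pin-c, tol and vib-1), 0 passed by edgeR, 1 was higher and 3 were lower at an unadjusted p under 0.05, and 2 were called lower by DESeq2. Over all tested genes 10.3% were higher and 11.0% lower at that p. DESeq2 called 11.3% of the genes to which it gave an adjusted p, in either direction. Their median log2 fold change was -0.44, against -0.51 for the 7 genes and 0.00080 for all tested genes. The genes called by DESeq2 were pin-c and het-6, named for incompatibility loci. The pin-c gene had 11.3, 4.89 and 4.89 CPM in crossed replicates 1, 2 and 3, against 25.8 and 14.0 CPM in uncrossed replicates 1 and 3. Its log2 fold change of -1.49 (SE 0.47) was the largest of the 6 in size, with adjusted p-values of 0.184 in edgeR and 0.0284 in DESeq2. The het-6 gene had 21.0, 18.6 and 16.6 CPM in crossed replicates 1, 2 and 3, against 31.3 and 24.98 CPM in uncrossed replicates 1 and 3. In both genes each crossed library lay below the uncrossed ones, as in 20.6% of all tested genes. For het-6 the log2 fold change of -0.59 (SE 0.16) had adjusted p-values of 0.164 in edgeR and 0.0371 in DESeq2. The transcription factor gene vib-1, a regulator of incompatibility, had 276, 181 and 194 CPM in crossed replicates 1, 2 and 3, against 288 and 403 CPM in uncrossed replicates 1 and 3. The groups did not overlap, but its log2 fold change of -0.67 (SE 0.24) had adjusted p-values of 0.207 in edgeR and 0.0838 in DESeq2. Unlike the checkpoint genes, vib-1 was highest in uncrossed replicate 3. The het-c gene went the other way, at 82.9, 79.5 and 80.1 CPM in crossed against 69.3 and 66.7 CPM in uncrossed libraries. So did un-24 under TMM scaling, at 243, 255 and 261 CPM in crossed against 227 and 225 CPM in uncrossed libraries. Groups thus lay apart with crossed higher in 2 of the 6 genes and lower in 3, against 21.3% and 20.6% of all tested genes.

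Genes of germling communication and fusion, beside which the checkpoints act, had fold changes below 0 in every alternative except for nrc-1. That gene lay at 0 within its error and changed sign between settings. In the edgeR fit to all 5 libraries 4310 of the 8638 tested genes were below 0. The alternatives reuse the same libraries. Of the 10 listed, 0 passed by edgeR in either direction, 4 were lower at an unadjusted p under 0.05, and 3 were called lower by DESeq2. Over all tested genes 11.0% were lower at that p, and DESeq2 called 11.3% in either direction. In 5 of the 10 every crossed library lay below the uncrossed ones, against 20.6% of all tested genes. The median log2 fold change was -0.44, and nrc-1, the MAP kinase kinase kinase gene of the MAK-2 cascade, was at -0.00041 (SE 0.091). The kinase gene mak-2 had 393, 364 and 375 CPM in crossed replicates 1, 2 and 3, against 486 and 477 CPM in uncrossed replicates 1 and 3. These groups lay apart with little spread, at a log2 fold change of -0.35 with an SE of 0.11 (adjusted p = 0.180 in edgeR and 0.00528 in DESeq2). The gene so (soft), whose protein alternates with MAK-2 at the tips of germlings that grow towards each other, had 85.6, 53.7 and 59.9 CPM in crossed replicates 1, 2 and 3, against 119 and 108 CPM in uncrossed replicates 1 and 3. All crossed libraries were below both uncrossed libraries, at a log2 fold change of -0.77 with an SE of 0.21 (adjusted p = 0.164 in edgeR and 0.0256 in DESeq2). The third gene called by DESeq2 was ham-7, a cell wall sensor needed for fusion, at -0.97 (SE 0.31; adjusted p = 0.184 in edgeR and 0.0331 in DESeq2). The gene prm-1 (NCU09337), for a protein of plasma membrane merger, had a log2 fold change of -0.41 with an SE of 0.34 (adjusted p = 0.492, edgeR). Without crossed replicate 1, where 8.84% of all tested genes passed by edgeR, 5 of the 10 did so, all of them lower: ham-5, so, adv-1, prm-1 and ham-7. The crossed group of that fit was the alike pair of replicates 2 and 3.

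**Figure D4:**
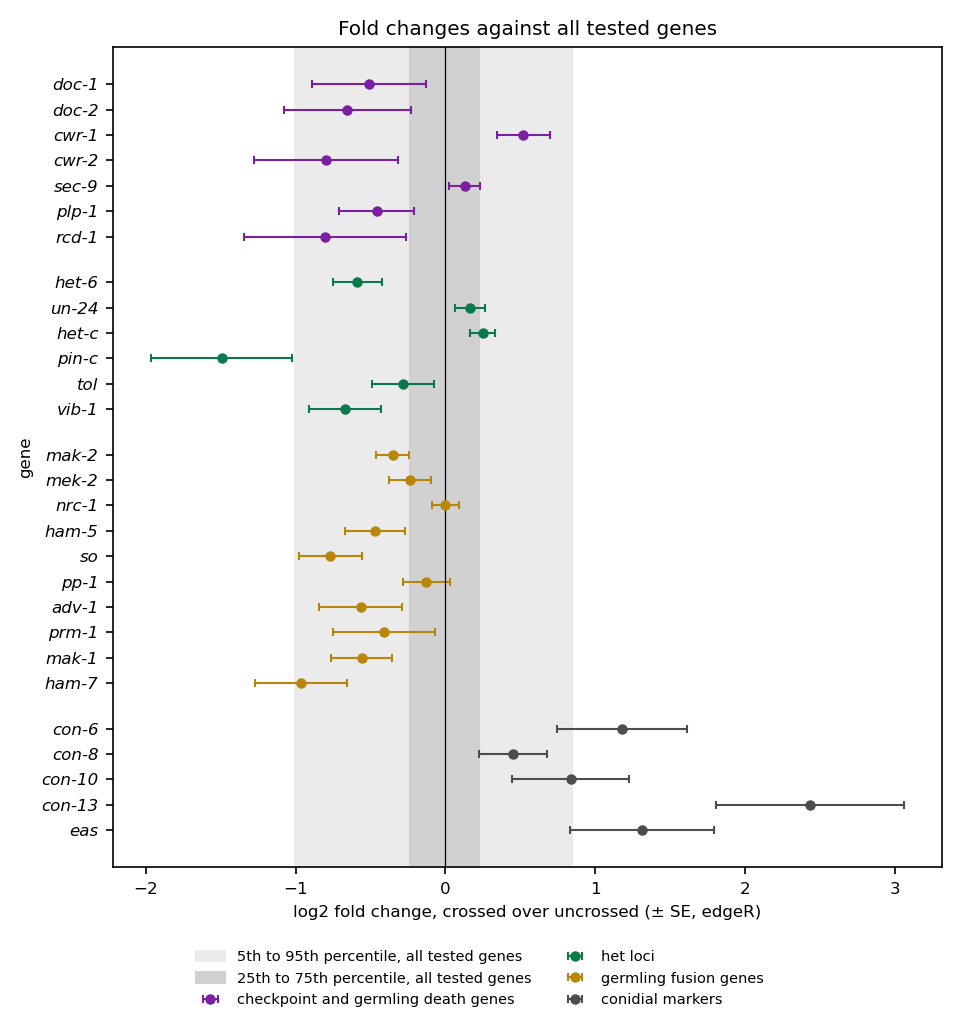
Log2 fold change (crossed over uncrossed, ± SE) by edgeR for the 7 genes, the het loci, the germling fusion genes and the conidial markers, over grey bands for the 5th to 95th and 25th to 75th percentile of all 8638 tested genes. Of the 7 genes cwr-1 and sec-9 lie right of 0 (sec-9 left of it with plain library sizes), while the 10 germling fusion genes lie at or left of 0 and the conidial markers right of it.

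Genes flanking the loci were examined because the title of the series speaks of elements clustered with allorecognition loci. The 3 genes on either side of each locus in the NC12 gene order, with NCU01381 between cwr-1 and cwr-2, made 25 genes, of which 19 were tested. By edgeR 0 of the 19 passed, with 1 higher and 1 lower at an unadjusted p under 0.05, and DESeq2 called 0. The shares over all tested genes were 10.3% higher and 11.0% lower at that p, and 11.3% by DESeq2. The median log2 fold change was 0.084. Groups did not overlap in 6 of the 19 with crossed libraries higher and in 3 with them lower. Over all tested genes those shares were 21.3% and 20.6%. NCU01381 had 29.8, 37.7 and 35.0 CPM in crossed replicates 1, 2 and 3, against 37.6 and 27.3 CPM in uncrossed replicates 1 and 3, so it followed neither cwr-1 nor cwr-2.

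Next to doc-2, NCU07193 had 19.0, 29.6 and 29.8 CPM in crossed replicates 1, 2 and 3, against 16.2 and 18.1 CPM in uncrossed replicates 1 and 3. Every crossed library lay above both uncrossed libraries, unlike in the doc genes but as in 21.3% of all tested genes. The log2 fold change of NCU07193 was 0.61 with an SE of 0.23 (adjusted p = 0.220, edgeR). On the other side of the doc pair gh6-3 had 29.3 CPM in crossed replicate 1, against 7.23 to 10.2 CPM in the other 4 libraries.

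The direct neighbour of plp-1, NCU09245, shared its order of libraries. It had 20.8, 10.3 and 11.1 CPM in crossed replicates 1, 2 and 3, against 42.6 and 16.3 CPM in uncrossed replicates 1 and 3 (log2 fold change -1.06, SE 0.49, adjusted p = 0.276, edgeR). One gene further out, NCU16494, named after its values were seen, had 44.4, 9.84 and 11.1 CPM in crossed replicates 1, 2 and 3, against 69.8 and 62.9 CPM in uncrossed replicates 1 and 3. The groups did not overlap there, with crossed libraries lower as in 20.6% of all tested genes. The log2 fold change of -1.61 (SE 0.68) had an adjusted p of 0.248 in edgeR. Without crossed replicate 1, against the same 8.84% of all tested genes, NCU16494 and NCU07193 were the 2 flanking genes that passed. That fit, too, had only the alike crossed replicates 2 and 3 in its crossed group.

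Both direct neighbours of rcd-1, NCU05711 and NCU05713, had 0 counts in all 5 libraries, and so did NCU05710 beyond the first of them. A count of 0 allows up to 3 counts, which is 0.0841 to 0.110 CPM in crossed and 0.0717 to 0.102 CPM in uncrossed libraries. The rcd-1 transcript, at 17.6 CPM or more, thus stood between genes that were not detectable at this depth. On the plp-1 and sec-9 side, NCU09242 next to sec-9 was also low, at 0.438 to 0.961 CPM in crossed and 0.454 to 0.511 CPM in uncrossed libraries.

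**Figure D5:**
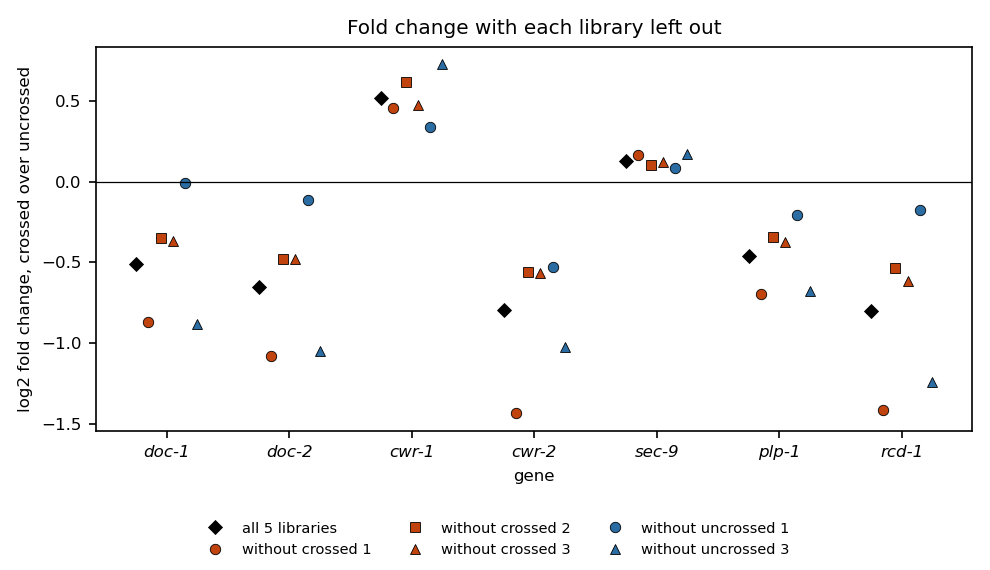
Log2 fold change (crossed over uncrossed, edgeR) of each gene with all 5 libraries and with each library left out in turn. Leaving out crossed replicate 1 or uncrossed replicate 3 takes doc-1, doc-2, cwr-2, plp-1 and rcd-1 further below 0, and leaving out uncrossed replicate 1 brings them nearer to it, whereas sec-9 stays between 0.088 and 0.17.

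Relative expression in the authors' deposited table has one estimate per stage with limits, the lower stage being at 1. In the authors' deposited table doc-1 was at 1 in crossed and 1.5 in uncrossed cultures, and doc-2 at 1 and 1.64. The values in the authors' deposited table were 1 in crossed and 1.81 in uncrossed cultures for both cwr-2 and rcd-1, and 1 and 1.51 for plp-1. For cwr-1 the authors' deposited table has 1.27 in crossed and 1 in uncrossed cultures. These 6 had the same direction in the fit to the counts. For sec-9 the authors' deposited table has 1 in crossed and 1.06 in uncrossed cultures, opposite to the TMM-scaled fit. In the authors' deposited table the limits of the stages lay apart for all 7 genes, while in the counts the libraries of the groups overlapped for 5 of them. The headers of the deposited table name stages only, so whether both rest on the same libraries cannot be told from them.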

How the data were processed

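RNA of 5 cultures was sequenced from stranded libraries as 101 bp paired reads, per the labels' protocols. The authors deposited raw counts per gene. CASAVA 1.8.2, fastp, HISAT2 2.1.0 and StringTie 1.3.3b are listed, without their roles, per the submitters' processing notes. The sources used here state no genome build, annotation or strand setting for the counting. The authors' deposited table holds a relative expression ratio per stage, per the file headers. One row (mat_a1) with 6 values for 5 libraries was left out, leaving 10591.

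Counts were tested with edgeR 4.0.16 (R 4.3.3): filterByExpr, TMM, robust quasi-likelihood fit of the group on all 5 libraries, two-sided, Benjamini-Hochberg adjustment over 8638 genes, threshold 0.05. Log2 CPM used a prior count of 2, and within-locus ratios a pseudocount of 0.5. DESeq2 1.42.0 and limma 3.58.1 (voom) were alternatives, and the fits were tested on simulated data. Symbols and gene order came from the RefSeq gene table of assembly NC12, to which 10590 rows matched; names of the 7 genes are not in it. No sequences are shown. Apart from the lowest count, levels of the 7 genes are not compared with each other. The 7 genes are always named, with the listed genes, direct neighbours and nearest profiles. Members and lists were chosen with earlier results of these data known.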

Additional observations from a re-analysis of the deposited data

How the results depend on the processing

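All 13 alternatives kept the direction of doc-1, doc-2, cwr-1, cwr-2, plp-1 and rcd-1, and none called any of them but cwr-2 without crossed replicate 1. With each library left out in turn, the log2 fold change of cwr-2 was -1.43 to -0.53 and 0 to 1 of the 7 genes passed. With plain library sizes the log2 fold change of sec-9 reversed to -0.089, un-24 to -0.056, stk-18 to -0.030 and NCU01381 to -0.16; the median of all genes was then -0.21. Over all genes, 4 passed the threshold, against 987 by DESeq2 and 0 to 762 with each library left out (0 without crossed replicate 2, crossed replicate 3 or uncrossed replicate 1, 192 without uncrossed replicate 3, 762 without crossed replicate 1). The het list had 2 calls by DESeq2 and 0 to 1 with a library left out, the germling fusion list 3 and 0 to 5, and the flanking genes 0 and 0 to 2. The fold change of nrc-1, near 0 throughout, was 0.0012 without ribosomal RNA genes and 0.0030 by limma-voom. Leaving out libraries gave -0.066 to 0.067 for nrc-1, -0.14 to 0.32 for NCU01381, -0.11 to 0.56 for NCU09242 and -0.37 to 0.94 for gh6-3. For each, the cause was not tested. A lone uncrossed library was taken to vary as the crossed ones do.

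In the fit with a replicate block 266 genes passed, 0 of the 7 and 1 of the het list (pin-c), NCU09242 turned to -0.12 and nrc-1 to 0.0062. Of the 7 genes, 5 then had an unadjusted p under 0.05, as had 16.9% of all genes in that fit, with adjusted p of 0.130 to 0.334 by edgeR for all but sec-9 (0.798). Deviations of same-numbered libraries correlated at 0.27 (number 1) and 0.22 (number 3). What a number marks is not in the labels, number 2 has no uncrossed library, and the numbers are taken to pair nothing.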
